A study of Mus musculus with 15 samples.

Results

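Xenobiotic-metabolizing enzymes of the lung were followed through an ovalbumin (OVA) challenge in mice with and without a homozygous mutation. The enzymes were chosen by name: a probe counted if it was detected (detection p below 0.05) on 3 or more of the 15 arrays and its gene symbol in the platform annotation began with Cyp, Gst, Ugt, Fmo, Aldh, Sult, Ces, Cbr or Akr, followed by at most one letter and a digit. Each gene was then read from its brightest probe. This gave 91 enzymes among the 10194 genes tested, namely 29 Cyp, 19 Gst, 15 Aldh, 9 Akr, 5 Ces, 5 Sult, 4 Fmo, 3 Cbr and 2 Ugt genes, of which 61 were detected on all 15 arrays. Another 91 genes on the array carry such a symbol but did not pass, among them the AHR-induced Cyp1a1 and Cyp1a2, each detected on 0 arrays. Just inside the limit lay Akr1c21, detected on 3 arrays, and Cyp3a44, Cyp4x1 and Fmo4, detected on 4. Aldh1a3, Cyp2b9, Gstm3 and Ugt3a1, each detected on 2 arrays, fell just outside.

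The study hybridized whole-lung RNA of 15 C57BL/6 mice, aged 22 weeks, to Illumina mouse beadchips, with 1 array per mouse. There were 4 challenged mutants, 3 unchallenged mutants, 4 challenged wild types and 4 unchallenged wild types. The mutants are labelled only as homozygotes. The sources used here do not give the allele, the schedule of sensitization and challenge, or what the controls received. The study's title names IFIT2, an interferon-induced protein, and both Ifit2 probes were detected on 0 of 7 mutant and on 8 of 8 wild-type arrays. Mutants are described as male, but the X-inactivation transcript Xist was detected by both of its probes on all 15 arrays. Each array is a separate animal, so the errors below include the spread between mice.

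Enzymes of this kind clear foreign chemicals and many lipids and steroids in stages. Cytochromes P450 (Cyp) and flavin monooxygenases (Fmo) oxidize a substrate, aldehyde dehydrogenases (Aldh), aldo-keto reductases (Akr) and carbonyl reductases (Cbr) handle its carbonyl groups, and carboxylesterases (Ces) split its esters. Glutathione transferases (Gst), sulfotransferases (Sult) and UDP-glucuronosyltransferases (Ugt) then attach a polar group. In the mouse lung many of them are concentrated in the club cells of the airway lining, which is why chemicals such as naphthalene, activated there by Cyp2f2, injure those cells.

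Values are background-corrected, quantile-normalized log2 intensities. A gene was called when its adjusted p was under 0.05 in a linear model (limma) fitted to all 15 arrays, with Benjamini-Hochberg adjustment over the 14396 probes tested. Mean raw signal ran between 319.9 and 493.6 on the challenged mutant arrays, 619.6 and 666.3 on the unchallenged mutant arrays, 438 and 502.3 on the challenged wild-type arrays, and 494.7 and 645.2 on the unchallenged wild-type arrays. The challenged lungs thus gave the dimmer arrays, with no overlap between challenged and unchallenged mutants, and counts that take this brightness into account are given beside the main ones. Exocrine pancreas genes stood high on 4 arrays, challenged mutants 1 and 2 and challenged wild types 1 and 2, where the 8 markers averaged 5.11, 8.96, 7.58 and 6.48 above the unchallenged wild-type mean on the log2 scale. On the other challenged arrays that average was 0.55 to 1.03, and on the unchallenged arrays it was -0.06 to 0.10. The total of enzymes called in each comparison, and the calls of named enzymes, were therefore also taken without the 4 highest arrays. That fit keeps challenged mutants 3 and 4 and challenged wild types 3 and 4, whose pancreas average was still above that of the unchallenged arrays. Counts by family, by gene list and of enzymes called in both genotypes used all 15 arrays only.

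The 3 enzymes with the lowest log2 changes in mutants, Cyp2b23, Cyp2f2 and Cyp2a5, lie with Cyp2b10 and Cyp2s1 in 1 cluster on chromosome 7, and the promoters of these 5 genes are shown for that reason. The windows below run from 250 bases before to 50 bases after the annotated start (RefSeq, GRCm38.p6). Cyp2f2 lies at chr7:27119705-27120004 on the plus strand, Cyp2a5 at chr7:26835089-26835388 on the plus strand, Cyp2b23 at chr7:26686381-26686680 on the minus strand, Cyp2b10 at chr7:25897408-25897707 on the plus strand and Cyp2s1 at chr7:25816476-25816775 on the minus strand. Cyp4f18, the enzyme with the highest change in both genotypes, is at chr8:72009577-72009876 on the minus strand. Capitals mark matches, on either strand, to TTNNGCAA (a form bound by C/EBP factors), CAAGTG (a core bound by NKX2-1), GCGTG (the core of the xenobiotic response element) and TGACNNNGC (the antioxidant response element).
Cyp2f2: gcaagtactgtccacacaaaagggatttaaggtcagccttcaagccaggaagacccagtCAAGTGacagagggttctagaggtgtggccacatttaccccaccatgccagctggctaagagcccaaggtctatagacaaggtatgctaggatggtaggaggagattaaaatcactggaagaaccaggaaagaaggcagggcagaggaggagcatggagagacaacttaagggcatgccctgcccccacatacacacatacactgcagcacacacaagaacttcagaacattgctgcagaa
Cyp2a5: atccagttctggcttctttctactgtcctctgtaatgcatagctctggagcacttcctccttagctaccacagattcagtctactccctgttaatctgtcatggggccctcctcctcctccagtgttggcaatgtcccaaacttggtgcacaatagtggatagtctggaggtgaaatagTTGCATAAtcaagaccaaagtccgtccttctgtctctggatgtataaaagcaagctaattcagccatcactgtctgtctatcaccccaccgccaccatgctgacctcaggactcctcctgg
Cyp2b23: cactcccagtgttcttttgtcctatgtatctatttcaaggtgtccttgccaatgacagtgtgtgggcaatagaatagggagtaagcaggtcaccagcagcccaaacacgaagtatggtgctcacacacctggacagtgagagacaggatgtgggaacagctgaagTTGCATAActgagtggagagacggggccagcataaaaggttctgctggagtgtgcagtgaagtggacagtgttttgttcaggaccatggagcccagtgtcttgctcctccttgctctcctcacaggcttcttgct
Cyp2b10: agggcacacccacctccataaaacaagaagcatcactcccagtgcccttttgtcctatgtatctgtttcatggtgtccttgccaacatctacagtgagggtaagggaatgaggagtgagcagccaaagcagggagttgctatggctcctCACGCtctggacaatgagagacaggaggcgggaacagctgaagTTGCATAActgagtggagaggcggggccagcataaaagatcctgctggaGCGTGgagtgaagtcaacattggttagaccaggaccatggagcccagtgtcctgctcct
Cyp2s1: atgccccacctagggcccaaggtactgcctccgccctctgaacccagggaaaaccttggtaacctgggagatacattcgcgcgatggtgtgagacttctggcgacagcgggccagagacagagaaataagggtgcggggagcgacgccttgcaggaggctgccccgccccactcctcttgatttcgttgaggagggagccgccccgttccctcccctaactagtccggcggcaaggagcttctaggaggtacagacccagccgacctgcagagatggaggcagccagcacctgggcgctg
Cyp4f18: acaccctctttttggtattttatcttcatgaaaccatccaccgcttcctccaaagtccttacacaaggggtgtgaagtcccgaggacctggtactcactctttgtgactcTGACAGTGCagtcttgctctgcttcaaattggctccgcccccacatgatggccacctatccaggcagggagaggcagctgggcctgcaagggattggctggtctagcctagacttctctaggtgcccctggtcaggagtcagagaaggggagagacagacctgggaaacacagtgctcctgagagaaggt

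Of these windows those of Cyp2a5, Cyp2b23 and Cyp2b10 hold 1 match each to TTNNGCAA, written TTGCATAA on the strand shown in all 3, and that of Cyp2f2 holds 1 match to CAAGTG. Cyp2b10 also has 2 GCGTG matches, Cyp4f18 has 1 TGACNNNGC match, and Cyp2s1 has none of the 4 motifs. A window was found for 76 of the 91 enzymes, including 23 of the 27 that were lower in at least 1 challenge comparison and 9 of the 13 that were higher. TTNNGCAA occurred in 30.4% of the windows of the lower enzymes (7 of 23) and 11.1% of those of the higher enzymes (1 of 9). Over the 76 enzymes it occurred in 19.7% and over all 27025 promoters in 12.2%. The cluster neighbours Cyp2a5, Cyp2b23 and Cyp2b10 are among those 7, and all these shares rest on few genes. CAAGTG occurred in 26.1% of the lower and 11.1% of the higher enzymes' windows, against 17.1% and 15.4%. GCGTG was found in 30.4% of the lower and 44.4% of the higher enzymes' windows, against 32.9% and 35.2%. TGACNNNGC was found in 4.35% of the lower (1 of 23) and 33.3% of the higher enzymes' windows (3 of 9), against 9.21% and 14.0%. Matches to TTNNGCAA and CAAGTG can share the letters CAA, and matches to TGACNNNGC and GCGTG the letters GC. A match describes letters in a window and not binding.

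With OVA challenge more enzymes were lower than higher, in both genotypes. In mutants 25 enzymes were lower and 9 higher (27.5% and 9.89% of 91), beside 15.3% lower, 15.0% higher and 30.3% called in either direction among all genes tested. In wild types 20 were lower and 9 higher (22% and 9.89%), beside 11.5% lower, 11.1% higher and 22.6% called in either direction among all genes. The enzymes' median log2 change was -0.16 in mutants and -0.03 in wild types, where the median over all genes was 0.01 in mutants and 0.02 in wild types. The lower share of enzymes lay above the background in each genotype under this normalization, and the higher share below it. By family, the median log2 change of the 29 P450s was -0.37 in mutants and -0.30 in wild types, that of the 19 Gst genes was -0.16 in mutants and 0.05 in wild types, and those of the 15 Aldh and 9 Akr genes were 0.23 and 0.18 in mutants and 0.03 and 0.19 in wild types.

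Many enzymes were called in both comparisons, which share no array. Those lower in both were Aldh2, Aldh3a2, Cbr2, Ces1d, Ces2g, Cyp2a5, Cyp2b23, Cyp2d22, Cyp2f2, Cyp2j9, Cyp4b1, Cyp4v3, Fmo1, Gsta3, Gstm1, Gstm2, Sult1a1 and Ugt1a10, which are 18 genes, 72% of the mutants' list and 90% of the wild types' list. Among all genes, 923 were lower in both, 59% of the mutants' list and 78.8% of the wild types' list. Akr1c19, Aldh5a1, Cyp4f18, Cyp7b1 and Gstp3 were higher in both, 55.6% of each list, where over all genes the 861 higher in both made up 56.3% of the mutants' list and 75.8% of the wild types' list. No enzyme was called in opposite directions, and 51 were called in neither comparison. Without the 4 arrays with pancreas genes, 29 enzymes were lower and 12 higher in mutants (31.9% and 13.2%), beside 19.5% lower and 18.8% higher among all genes in that fit. In wild types 17 were lower and 6 higher (18.7% and 6.59%), beside 8.82% and 8.65% of all genes. Among the calls described below and taken singly in that fit, those of Cyp7b1 in both genotypes and of Cbr2 between challenged genotypes ended without the 4 arrays. So did those of Aldh1a7, Cbr2, Cyp51, Ugt1a10 and Ugt1a6a in wild types. The calls of Cyp2d22, Cyp2j9, Cyp4v3, Cyp27a1 and Cyp4f15 were not taken singly there. Between challenged genotypes 1 other enzyme, Gsto1, was called in that fit, lower in mutants (1.1%). Among all genes 0.952% were lower and 0.51% higher there.

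These counts depend on how array brightness is treated. With each array's mean signal as a covariate, 4 enzymes were lower and 2 higher in mutants, and 9 lower and 3 higher in wild types. Of all genes 1.61% were lower in mutants and 5.56% in wild types in that fit, against 4.4% and 9.89% of the enzymes. Of all genes 2.2% were higher in mutants and 4.68% in wild types, against 2.2% and 3.3% of the enzymes. With arrays scaled only to a common median the split was 52 lower and 4 higher in mutants and 29 lower and 3 higher in wild types, where the median of all genes itself moved to -0.54 in mutants and -0.29 in wild types. On that scale 57.1% of enzymes and 51.1% of all genes were lower in mutants, and 31.9% of enzymes and 30.8% of all genes in wild types, so the lower share of enzymes lay close to the background there. Among single mice, leaving out unchallenged mutant 2 left 14 lower enzymes in mutants (15.4%, beside 7.94% of all genes). Leaving out unchallenged mutant 1 or 2 left 5 higher ones in each fit (5.49%, beside 11.6% and 7.86% of all genes). Leaving out challenged wild type 2 left 13 lower enzymes in wild types (14.3%, beside 7.75% of all genes). The fat markers' level as a covariate left 13 lower enzymes in mutants (14.3%, beside 10% of all genes).

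**Figure D1:**
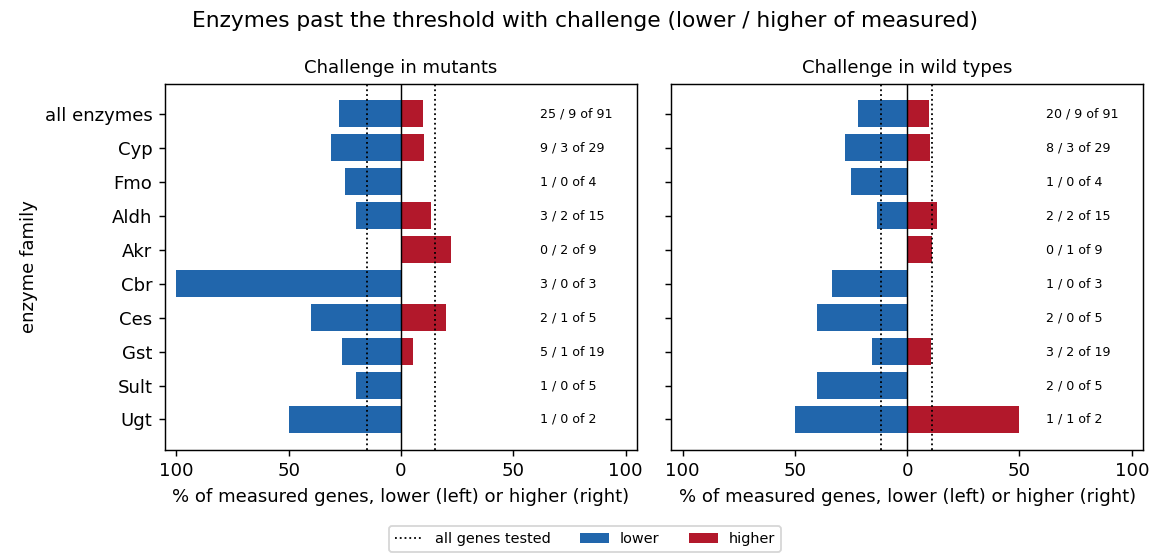
Share of the measured genes of each enzyme family called lower (blue, left of 0) or higher (red, right of 0) with challenge, in percent, for mutants (left panel) and wild types (right panel), with the counts printed beside the bars. Dotted lines give the shares among all genes tested; the lower share of all 91 enzymes, 27.5% in mutants and 22% in wild types, passes its line and the higher share of 9.89% does not.

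Whole lung mixes many cell types, and in such RNA fewer cells of a type and less RNA per cell cannot be told apart. On every challenged array the marker lists of inflammatory and goblet cells stood higher than on every unchallenged wild-type array. The list of eosinophil and neutrophil genes averaged 2.54 to 2.89 in challenged mutants and 1.72 to 2.91 in challenged wild types, relative to the unchallenged wild-type mean on the log2 scale, and 5 of its 6 tested genes rose in each genotype. Goblet cell genes averaged 2.82 to 3.82 in challenged mutants and 3.02 to 3.81 in challenged wild types, with 4 of 6 called higher in mutants and 6 of 6 in wild types. Endothelial genes averaged -1.28 to -0.62 in challenged mutants and -0.87 to -0.56 in challenged wild types, and 7 of 8 fell in each genotype. Alveolar markers were lower as well. The type 1 list averaged -0.89 to -0.28 in challenged mutants and -0.62 to -0.34 in challenged wild types, against -0.23 to 0.11 in unchallenged mutants and -0.15 to 0.06 in unchallenged wild types, and 3 of its 4 tested genes fell in mutants and 1 in wild types. The type 2 list averaged -0.71 to -0.23 in challenged mutants and -0.47 to -0.15 in challenged wild types, against -0.10 to 0.23 in unchallenged mutants and -0.07 to 0.05 in unchallenged wild types. Of its 10 genes 4 fell in mutants, and in wild types 3 fell and 2 rose.

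Markers of the airway lining did not move as one. Scgb1a1, the secretoglobin that defines club cells, was between 15.16 and 15.55 on all 15 arrays and was not called, with a log2 change of 0.03 (SE 0.11, limma adjusted p 0.874) in mutants and 0.03 (SE 0.10, limma adjusted p 0.872) in wild types. Its probe ranked between 1 and 7 in brightness on every array, at the top of the normalized scale (15.55), where a change in level may not be visible, so no steady level can be read from it. Of the 5 club cell markers tested, Cldn10 fell in mutants (log2 change -0.65, SE 0.21, limma adjusted p 0.0338) and Lypd2 rose in wild types (log2 change 0.83, SE 0.21, limma adjusted p 0.0126), and the list averaged -0.61 to 0.26 in challenged mutants and -0.24 to 0.39 in challenged wild types. Of 8 ciliated cell markers 3 fell in mutants and 0 in wild types. That list averaged -1.19 to -0.17 in challenged mutants and -0.49 to 0.44 in challenged wild types. How far a shift in the cells present enters each enzyme's change was not tested.

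Cyp2f2, the P450 that activates naphthalene in club cells, had intensities of 11.76, 12.84, 12.93 and 12.55 in challenged mutants, against 14.19, 14.90 and 14.35 in unchallenged mutants. It stood at 14.23, 13.56, 14.23 and 13.11 in challenged wild types, against 14.82, 14.99, 14.82 and 14.82 in unchallenged wild types. The challenged arrays lay below the unchallenged arrays of their genotype without overlap, and all 4 challenged mutants lay below all 4 challenged wild types. The level was 3.89-fold lower (log2 change -1.96, SE 0.30, limma adjusted p 0.000555) with challenge in mutants and 2.11-fold lower (log2 change -1.08, SE 0.28, limma adjusted p 0.0134) in wild types.

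Cyp2a5, which oxidizes nicotine and coumarin, is measured by 3 probes. The brightest gave 8.00, 9.33, 9.70 and 8.08 in challenged mutants, against 10.01, 10.61 and 10.82 in unchallenged mutants. The same probe gave 8.83, 8.78, 9.21 and 8.17 in challenged wild types, against 10.70, 10.95, 10.23 and 10.55 in unchallenged wild types. Challenged and unchallenged arrays did not overlap in either genotype, although challenged mutants 1 and 4 were well below challenged mutants 2 and 3. The gene was 3.25-fold lower (log2 change -1.70, SE 0.38, limma adjusted p 0.00505) with challenge in mutants and 3.63-fold lower (log2 change -1.86, SE 0.35, limma adjusted p 0.00262) in wild types, and the other 2 probes also passed in both genotypes, with log2 changes of -2.25 and -1.56 in mutants and -2.22 and -1.43 in wild types. Its near-identical neighbour Cyp2a4 may share signal on such probes, so the change is given for the probes and not for 1 gene with certainty.

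Cyp2b23, a further member of the phenobarbital-responsive Cyp2b subfamily, gave 6.16, 6.51, 5.81 and 4.81 in challenged mutants, against 8.09, 8.53 and 8.03 in unchallenged mutants, and 7.18, 6.85, 6.30 and 6.58 in challenged wild types, against 8.13, 8.58, 8.27 and 8.29 in unchallenged wild types. Every challenged array was below every unchallenged one. It was 5.27-fold lower (log2 change -2.40, SE 0.32, limma adjusted p 0.000222) in mutants and 3.02-fold lower (log2 change -1.59, SE 0.29, limma adjusted p 0.00215) in wild types, and its log2 change in mutants was the lowest of the 91 enzymes. The probe was detected on 2 of the 4 challenged mutant arrays and on all other arrays, so the size of the mutants' fall rests in part on values at background. Its neighbour Cyp2b10, the classical target of the receptor CAR, had 10.60 to 11.35 in challenged mutants, against 11.72 to 12.07 in unchallenged mutants, a level 1.73-fold lower (log2 change -0.79, SE 0.22, limma adjusted p 0.0159). That call ended without unchallenged mutant 2 (limma adjusted p 0.078). A fainter probe of Cyp2b10 did not pass in mutants (log2 change -0.04, limma adjusted p 0.881). In wild types Cyp2b10 was not called (log2 change -0.53, SE 0.20, limma adjusted p 0.0743), nor was Cyp2s1, a P450 of epithelia outside the liver, in mutants (log2 change -0.52, SE 0.20, limma adjusted p 0.0644) or in wild types (log2 change -0.11, SE 0.19, limma adjusted p 0.719). Of the 5 cluster members, 4 were lower in mutants, 3 in wild types and 0 higher in either. The cluster was picked for its low changes in mutants, so this count only describes it.

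**Figure D2:**
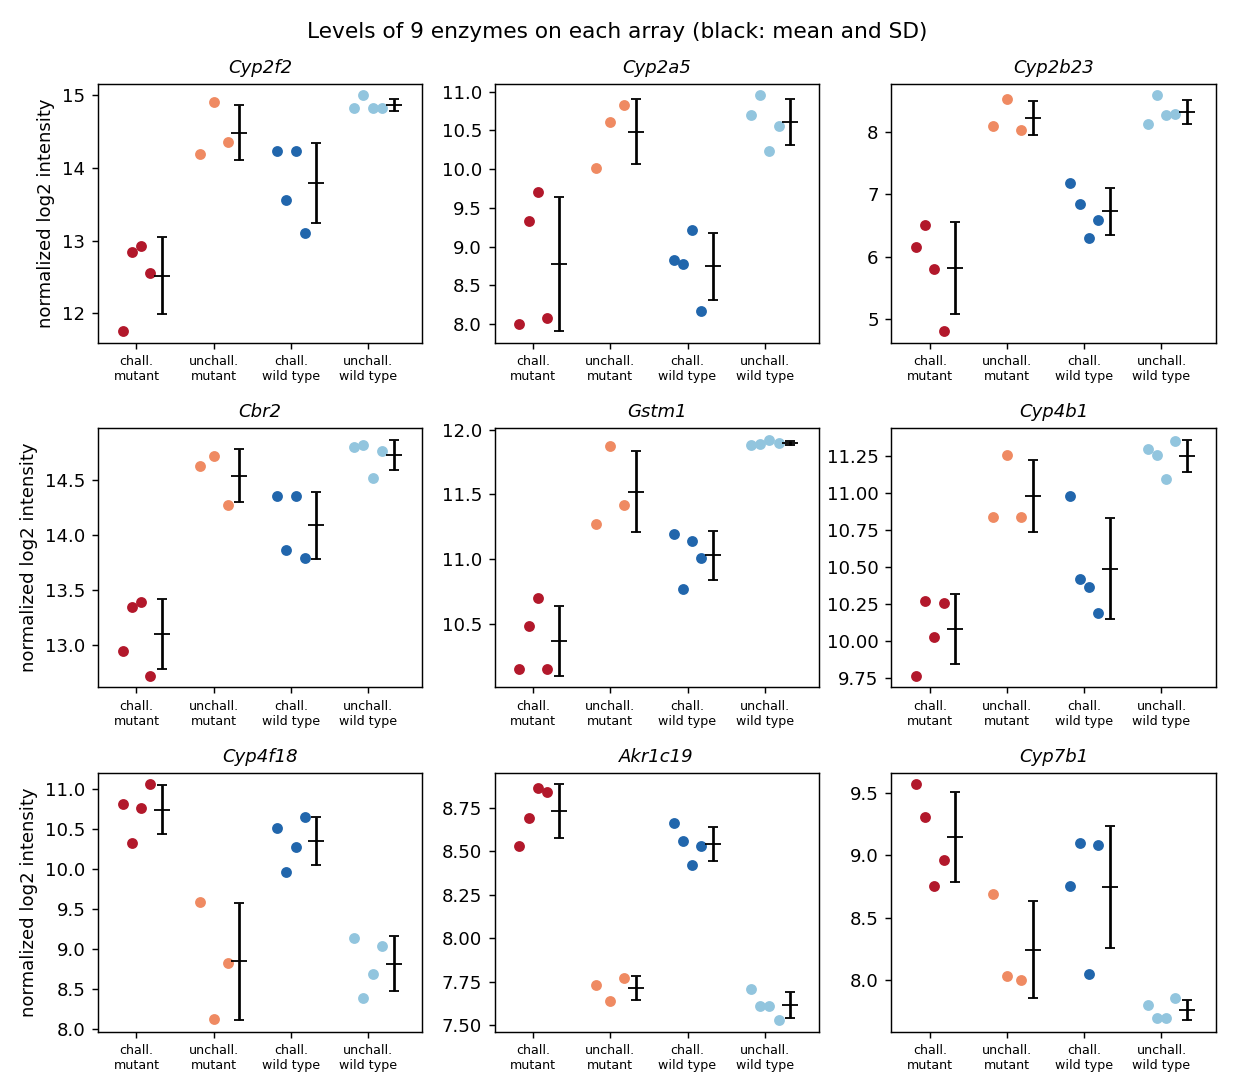
Normalized log2 intensity (vertical axis) of 9 enzymes on each of the 15 arrays, by group, with the mean and SD of each group in black. Cyp2f2 lay at 11.76 to 12.93 in challenged mutants, below the 14.19 to 14.90 of unchallenged mutants, and at 13.11 to 14.23 in challenged wild types, below the 14.82 to 14.99 of unchallenged wild types; Cyp4f18, Akr1c19 and Cyp7b1 lay higher on the challenged arrays of both genotypes.

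Among P450s outside that cluster, Cyp4b1, which hydroxylates fatty acids and activates plant furans in the lung, was at 9.77, 10.27, 10.03 and 10.26 in challenged mutants, against 10.84, 11.26 and 10.84 in unchallenged mutants. Cyp4b1 was at 10.98, 10.42, 10.37 and 10.19 in challenged wild types, against 11.30, 11.26, 11.10 and 11.35 in unchallenged wild types. No challenged array reached the unchallenged arrays of its genotype, and the level was 1.87-fold lower (log2 change -0.90, SE 0.19, limma adjusted p 0.00318) in mutants and 1.7-fold lower (log2 change -0.77, SE 0.17, limma adjusted p 0.00651) in wild types. Further P450s lower in mutants were Cyp2d22, Cyp2j9, Cyp4v3 and Cyp27a1, the mitochondrial sterol hydroxylase. Cyp27a1 was called by its brightest probe only. Its other probes did not pass in mutants (log2 change -0.04, limma adjusted p 0.918, and -0.41, limma adjusted p 0.111). In wild types Cyp2d22, Cyp2j9 and Cyp4v3 were lower as well, together with Cyp4f15. The single calls of these P450s were not followed with arrays left out. Nearest the threshold were Cyp2d22 in mutants (limma adjusted p 0.0448) and Cyp4v3 in wild types (limma adjusted p 0.0458). Altogether 9 of 29 P450s fell in mutants (31%) and 8 of 29 in wild types (27.6%), beside 15.3% and 11.5% of all genes.

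Cyp4f18 and Cyp7b1, P450s with endogenous lipid substrates, rose in both genotypes. Cyp4f18, which in mouse neutrophils inactivates leukotriene B4, gave 10.82, 10.32, 10.77 and 11.06 in challenged mutants, against 9.59, 8.12 and 8.82 in unchallenged mutants. Its intensities were 10.52, 9.96, 10.27 and 10.65 in challenged wild types, against 9.14, 8.38, 8.69 and 9.04 in unchallenged wild types. It was 3.73-fold higher (log2 change 1.90, SE 0.30, limma adjusted p 0.000662) with challenge in mutants and 2.9-fold higher (log2 change 1.54, SE 0.28, limma adjusted p 0.00186) in wild types, and the groups did not overlap. A fainter probe of Cyp4f18 also passed, with log2 changes of 1.85 in mutants and 1.37 in wild types. The list of eosinophil and neutrophil genes stood high on the same 8 arrays, and its part in this rise was not tested.

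Cyp7b1, the oxysterol hydroxylase that makes an attractant for lymphocytes as well as bile acid precursors, stood at 9.57, 9.31, 8.75 and 8.96 in challenged mutants, against 8.69, 8.03 and 8.00 in unchallenged mutants. It was at 8.75, 9.10, 8.05 and 9.08 in challenged wild types, against 7.80, 7.69, 7.69 and 7.85 in unchallenged wild types. It was 1.88-fold higher (log2 change 0.91, SE 0.26, limma adjusted p 0.0166) in mutants and 1.98-fold higher (log2 change 0.99, SE 0.24, limma adjusted p 0.00951) in wild types, without overlap of the groups. The mutants' call ended without unchallenged mutant 2 (limma adjusted p 0.0795) or 3 (0.068). Cyp51, the lanosterol demethylase of cholesterol synthesis, was 1.34-fold higher (log2 change 0.42, SE 0.12, limma adjusted p 0.0233) in wild types, a call that ended without any 1 of unchallenged wild types 2 (limma adjusted p 0.0771), 3 (0.0538) and 4 (0.0549) and challenged wild types 2 (0.0527) and 3 (0.0579). In mutants it was not called (log2 change 0.18, SE 0.13, limma adjusted p 0.315). Cyp4x1 was called higher in mutants, but it was detected on 2 of 4 challenged and 0 of 3 unchallenged mutant arrays, so that only a bound holds: it was at least 1.35-fold higher (limma adjusted p 0.0358), at means of 6.00 in challenged mutants and 5.35 in unchallenged mutants. This call ended without challenged mutant 3 (limma adjusted p 0.0737) or 4 (0.0891) or unchallenged mutant 1 (0.102) or 2 (0.122). Cyp1b1, a target of the aryl hydrocarbon receptor, was not called in mutants (log2 change 0.22, SE 0.22, limma adjusted p 0.461) or in wild types (log2 change 0.14, SE 0.21, limma adjusted p 0.656).

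Of the 4 flavin monooxygenases Fmo1, which oxidizes nitrogen and sulfur atoms of drugs, passed in both genotypes. It gave 11.81, 12.10, 11.95 and 11.50 in challenged mutants, against 12.15, 12.67 and 12.49 in unchallenged mutants. Its intensities were 12.25, 11.96, 12.00 and 11.93 in challenged wild types, against 12.82, 12.79, 12.81 and 13.01 in unchallenged wild types. The groups did not overlap, though challenged mutant 2 and unchallenged mutant 1 were close. Fmo1 was 1.51-fold lower (log2 change -0.60, SE 0.16, limma adjusted p 0.0117) in mutants, a call that ended without unchallenged mutant 2 (limma adjusted p 0.0745), and 1.76-fold lower (log2 change -0.82, SE 0.15, limma adjusted p 0.00177) in wild types. Fmo2, known as a lung form of the enzyme, was faint here, detected on 12 arrays, and was not called in mutants (log2 change -0.58, SE 0.26, limma adjusted p 0.108) or wild types (log2 change -0.28, SE 0.24, limma adjusted p 0.423).

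**Figure D3:**
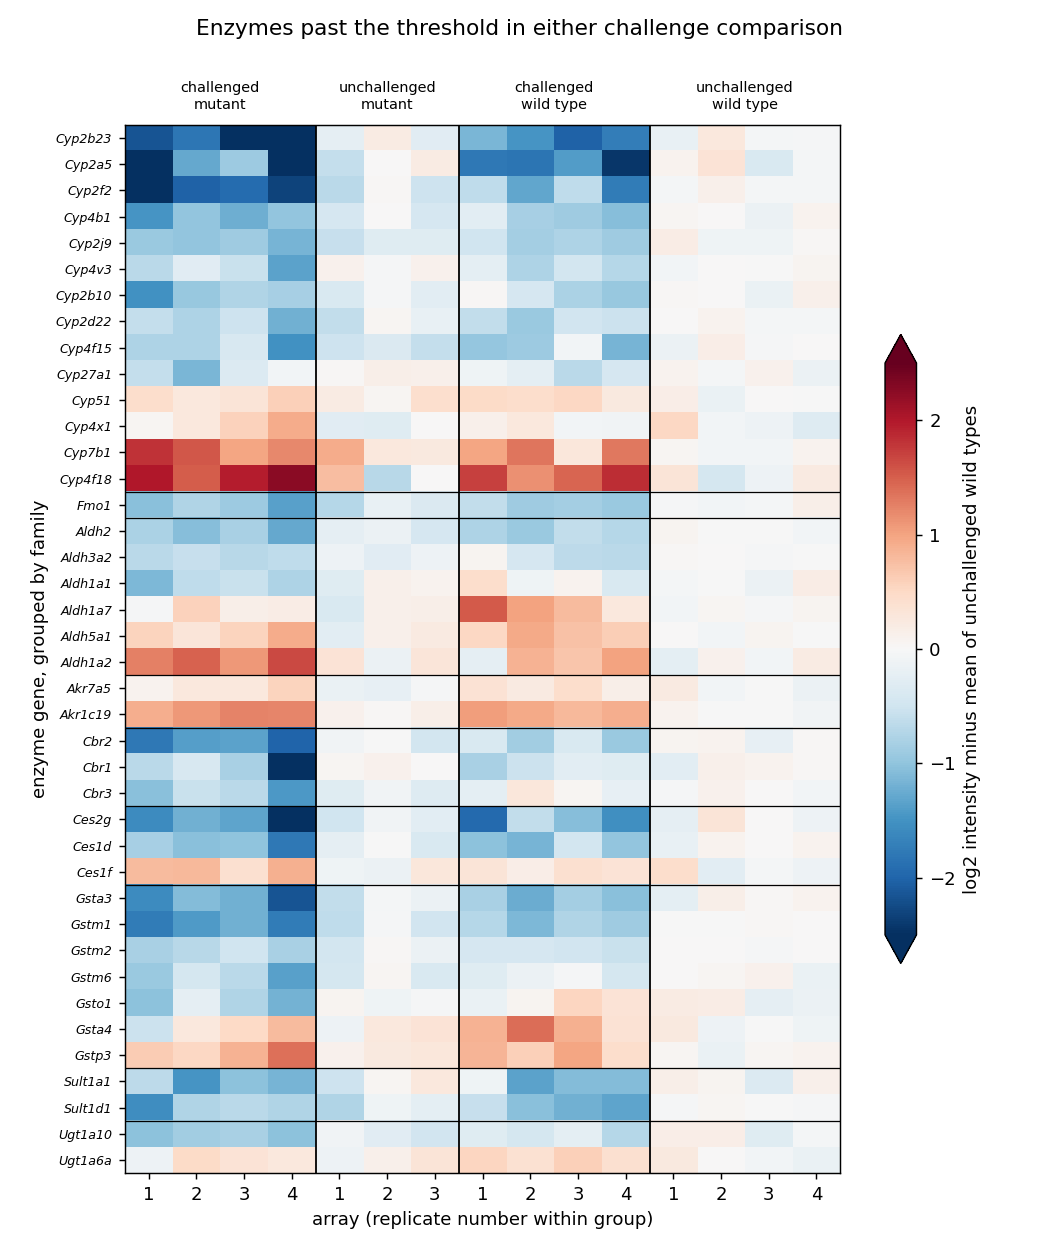
Log2 intensity minus the mean of unchallenged wild types (colour, blue lower and red higher, with values beyond 2.5 drawn in the end colours) for the 40 enzymes called in at least 1 challenge comparison (rows, by family) on the 15 arrays (columns, by group). The fall of Cyp2f2, Cyp2a5 and Cyp2b23 and the rise of Cyp4f18 show on all 8 challenged arrays.

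Aldehyde dehydrogenases moved in both directions: 3 of 15 were lower and 2 higher in mutants, and 2 lower and 2 higher in wild types. These shares, 20% lower and 13.3% higher in mutants and 13.3% each way in wild types, lay near those of all genes. Among all genes 15.3% were lower and 15.0% higher in mutants, and 11.5% and 11.1% in wild types. Aldh2, the mitochondrial enzyme that clears acetaldehyde, had 12.94, 12.68, 12.92 and 12.45 in challenged mutants, against 13.51, 13.58 and 13.32 in unchallenged mutants. It had 12.96, 12.80, 13.12 and 13.02 in challenged wild types, against 13.81, 13.73, 13.73 and 13.67 in unchallenged wild types. The groups were separate in both genotypes, and Aldh2 was 1.65-fold lower (log2 change -0.73, SE 0.13, limma adjusted p 0.00166) in mutants and 1.7-fold lower (log2 change -0.76, SE 0.12, limma adjusted p 0.00108) in wild types. Aldh3a2, which oxidizes fatty aldehydes, was 1.38-fold lower (log2 change -0.46, SE 0.15, limma adjusted p 0.0329) in mutants and 1.34-fold lower (log2 change -0.43, SE 0.14, limma adjusted p 0.0411) in wild types, but the mutants' call ended without any 1 of 5 arrays (unchallenged mutants 1, 2 and 3 and challenged mutants 1 and 3, limma adjusted p 0.0532 to 0.0933) and the wild types' call without any 1 of 11 arrays (limma adjusted p 0.0503 to 0.112), holding only without challenged wild type 1 or challenged mutant 1, 2 or 4.

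The 3 measured Aldh1a genes that are named here did not share a direction. Aldh1a1, an enzyme of retinoic acid synthesis, gave 11.39, 11.87, 11.95 and 11.73 in challenged mutants, against 12.20, 12.63 and 12.60 in unchallenged mutants. It was 1.67-fold lower (log2 change -0.74, SE 0.19, limma adjusted p 0.00963) in mutants, a call that ended without unchallenged mutant 2 (limma adjusted p 0.0535), and in wild types its log2 change was 0.00 (SE 0.17, limma adjusted p 0.99). Aldh1a7, its close paralog, gave 11.95, 11.41, 11.20 and 10.68 in challenged wild types, against 10.34, 10.45, 10.38 and 10.47 in unchallenged wild types, and was 1.87-fold higher (log2 change 0.90, SE 0.22, limma adjusted p 0.0101) in wild types without overlap; in mutants it was not called (log2 change 0.26, SE 0.24, limma adjusted p 0.414). The 2 paralogs are close enough in sequence that probes may cross-react. Aldh1a2, which makes retinoic acid in mesenchymal and immune cells, gave 6.93, 7.15, 6.75 and 7.32 in challenged mutants, against 6.02, 5.52 and 5.97 in unchallenged mutants, and was 2.29-fold higher (log2 change 1.20, SE 0.25, limma adjusted p 0.00358) in mutants, while in wild types, where challenged wild type 1 stayed at 5.44, it was not called (log2 change 0.59, SE 0.23, limma adjusted p 0.0839). Aldh5a1, the succinic semialdehyde dehydrogenase, was 1.47-fold higher (log2 change 0.55, SE 0.16, limma adjusted p 0.0173) in mutants, not called without unchallenged mutant 1 (limma adjusted p 0.0928), and 1.63-fold higher (log2 change 0.70, SE 0.15, limma adjusted p 0.00413) in wild types.

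Aldh3a1, an aldehyde dehydrogenase abundant in stratified epithelia, varied widely among mice of a group and was not called in any comparison. It gave 7.03, 8.78, 9.91 and 9.81 in challenged mutants and 9.51, 10.52 and 10.61 in unchallenged mutants. In challenged wild types it gave 9.09, 12.08, 10.54 and 9.81, and in unchallenged wild types 9.69, 10.34, 10.52 and 9.90. The highest value, 12.08 in challenged wild type 2, fell on the array where the 7 squamous epithelium markers were also highest, 3.06 above the unchallenged wild-type mean. Within unchallenged wild types, unchallenged mutants and challenged wild types the Aldh3a1 values followed the order of the squamous level. That level was -1.58 and -1.82 in challenged mutants 1 and 2, against 0.99 and 1.33 in challenged mutants 3 and 4. The part of such tissue in the Aldh3a1 values was not tested. Cyp2e1, the ethanol-inducible P450, which is also found in fat and is described here after its values were seen, gave 11.29, 9.85, 10.14 and 10.49 in challenged mutants and 7.66, 7.65, 9.55 and 9.18 in challenged wild types, a difference that did not pass (log2 change 1.93, SE 0.54, limma adjusted p 0.146). Unchallenged mutants had 10.24, 9.11 and 10.92 and unchallenged wild types 10.60, 9.47, 9.70 and 8.45. The 4 fat markers averaged 1.88 to 3.54 on the challenged mutant arrays and -0.87 to 1.66 on the challenged wild-type arrays, with the highest value on challenged mutant 1, where Cyp2e1 was highest too. Within challenged mutants 1, 2, 3 and 4 Cyp2e1 followed the fat level (3.54, 1.88, 2.05 and 2.61). Unchallenged mutant 3, at 2.13, had the highest unchallenged Cyp2e1. The lowest fat level, -0.87, was shared by unchallenged wild type 4 and challenged wild type 1, with Cyp2e1 at 8.45 and 7.66. The other groups did not keep this order throughout. Challenged wild type 4, with fat markers at 1.66, had Cyp2e1 at 9.18. Unchallenged mutant 2, at 1.11, had 9.11, while unchallenged wild type 1, at 0.05, had 10.60. The part of fat in the Cyp2e1 values was not tested.

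**Figure D4:**
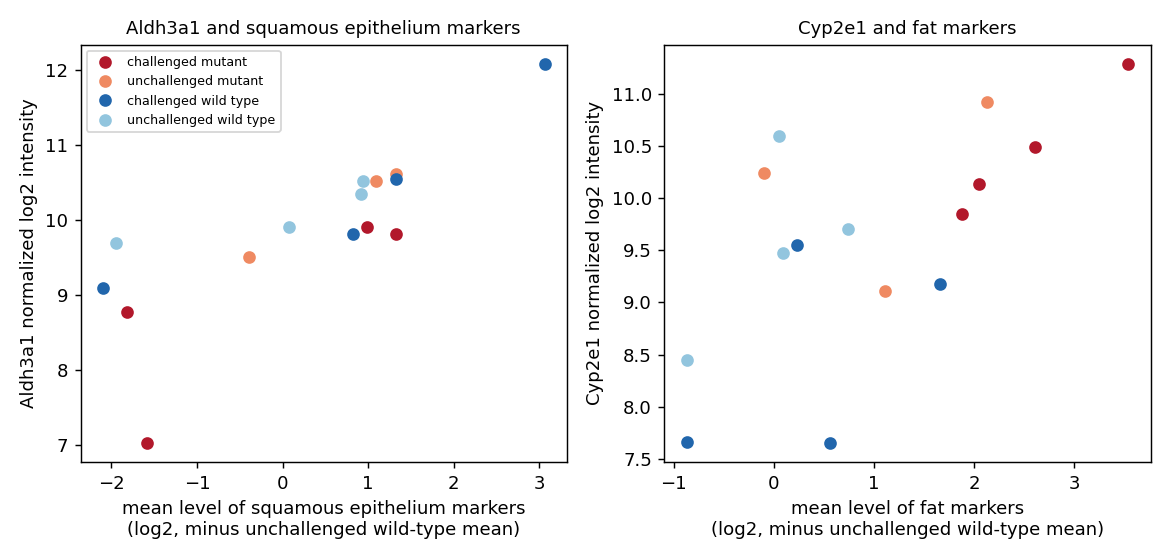
Normalized log2 intensity of Aldh3a1 against the mean level of 7 squamous epithelium markers (left), and of Cyp2e1 against the mean level of 4 fat markers (right), both marker levels being log2 differences from the unchallenged wild-type mean; each point is 1 of the 15 arrays, coloured by group. Challenged wild type 2 has the highest squamous level (3.06) and Aldh3a1 (12.08), and challenged mutant 1 the highest fat level (3.54) and Cyp2e1 (11.29). Within unchallenged wild types, unchallenged mutants and challenged wild types Aldh3a1 follows the order of the squamous level, and challenged mutants 1 and 2 are low in both. Cyp2e1 follows the order of the fat level within challenged mutants only.

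The carbonyl reductases were the family in which all measured members fell in mutants: 3 of 3, against 1 of 3 in wild types. Of all genes 15.3% fell in mutants and 11.5% in wild types. Cbr2, the carbonyl reductase typical of the mouse lung, gave 12.94, 13.34, 13.39 and 12.72 in challenged mutants, against 14.63, 14.72 and 14.27 in unchallenged mutants. It also gave 14.35, 13.86, 14.35 and 13.79 in challenged wild types, against 14.80, 14.82, 14.52 and 14.76 in unchallenged wild types. Challenged arrays were below unchallenged ones in both genotypes, and challenged mutants were below challenged wild types. With challenge Cbr2 was 2.72-fold lower (log2 change -1.44, SE 0.19, limma adjusted p 0.000259) in mutants and 1.55-fold lower (log2 change -0.64, SE 0.18, limma adjusted p 0.0222) in wild types; the wild types' call ended without unchallenged wild type 2 (limma adjusted p 0.0616) or 4 (0.0541), or challenged wild type 2 (0.0669) or 4 (0.0577).

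Cbr3, an NADPH-dependent reductase of quinones and other carbonyls, gave 8.27, 8.76, 8.63 and 7.88 in challenged mutants, against 9.01, 9.21 and 8.99 in unchallenged mutants, and was 1.61-fold lower (log2 change -0.68, SE 0.19, limma adjusted p 0.0142) in mutants; this ended without unchallenged mutant 2 (limma adjusted p 0.0692). In wild types it was not called (log2 change -0.03, SE 0.17, limma adjusted p 0.926). Cbr1, which reduces quinones and prostaglandins, was 2.3-fold lower (log2 change -1.20, SE 0.40, limma adjusted p 0.034) in mutants, at 8.05, 8.33, 7.92 and 5.99 in challenged mutants, against 8.77, 8.83 and 8.73 in unchallenged mutants, and was detected on 3 of the 4 challenged mutant arrays. Its size rests on challenged mutant 4, without which the log2 change was -0.68 (limma adjusted p 0.00912), and the call ended without unchallenged mutant 1 (limma adjusted p 0.0788), 2 (0.0993) or 3 (0.0734). In wild types Cbr1 was not called (log2 change -0.48, SE 0.37, limma adjusted p 0.36).

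Of the 9 aldo-keto reductases 2 rose in mutants (22.2%), 1 in wild types (11.1%) and none fell. Among all genes 15.0% rose in mutants and 11.1% in wild types. Akr1c19, of the hydroxysteroid-reducing Akr1c cluster on chromosome 13, gave 8.53, 8.69, 8.86 and 8.84 in challenged mutants, against 7.73, 7.64 and 7.77 in unchallenged mutants. It was at 8.66, 8.56, 8.42 and 8.53 in challenged wild types, against 7.71, 7.61, 7.61 and 7.53 in unchallenged wild types. These groups were far apart next to their own spread, and Akr1c19 was 2.02-fold higher (log2 change 1.02, SE 0.11, limma adjusted p 8.02e-05) in mutants and 1.89-fold higher (log2 change 0.92, SE 0.10, limma adjusted p 7.94e-05) in wild types. The other 4 members of that cluster, Akr1c12, Akr1c14, Akr1c21 and Akr1e1, were not called by their brightest probes. A fainter probe of Akr1c14, however, passed as lower (log2 change -1.08, limma adjusted p 0.00785 in mutants; -1.22, limma adjusted p 0.00348 in wild types). Akr7a5, an aflatoxin aldehyde reductase, was 1.35-fold higher (log2 change 0.43, SE 0.13, limma adjusted p 0.0251) in mutants, a call that ended without unchallenged mutant 1 (limma adjusted p 0.0738) or 2 (0.0959) or challenged mutant 4 (0.0567). The other 2 probes of Akr7a5 did not pass in mutants (log2 change -0.07, limma adjusted p 0.706, and 0.00, limma adjusted p 0.99), and the mean of the 3 probes did not either (log2 change 0.12, limma adjusted p 0.402).

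Among 5 carboxylesterases, Ces1d and Ces2g fell in both genotypes. Ces1d, a carboxylesterase that also hydrolyses triacylglycerol, gave 12.64, 12.42, 12.47 and 11.68 in challenged mutants, against 13.24, 13.45 and 13.08 in unchallenged mutants. It had 12.44, 12.31, 13.01 and 12.49 in challenged wild types, against 13.28, 13.56, 13.48 and 13.55 in unchallenged wild types. It was 1.94-fold lower (log2 change -0.95, SE 0.21, limma adjusted p 0.00489) in mutants and 1.88-fold lower (log2 change -0.91, SE 0.20, limma adjusted p 0.00547) in wild types. Ces2g had 5.76 to 7.19 in challenged mutants, against 7.90 to 8.31 in unchallenged mutants, and 6.46 to 7.77 in challenged wild types, against 8.18 to 8.72 in unchallenged wild types; it was 2.64-fold lower (log2 change -1.40, SE 0.33, limma adjusted p 0.00665) in mutants, where 3 of the 4 challenged arrays detected it, and 2.44-fold lower (log2 change -1.29, SE 0.31, limma adjusted p 0.00903) in wild types. A fainter probe of Ces2g did not pass in mutants (log2 change -0.55, limma adjusted p 0.0531) or in wild types (log2 change -0.29, limma adjusted p 0.28). Ces1f, in the same chromosome 8 cluster as Ces1d, went the other way in mutants, where it was 1.65-fold higher (log2 change 0.72, SE 0.17, limma adjusted p 0.00707) at 8.09, 8.11, 7.71 and 8.20 in challenged mutants, against 7.19, 7.15 and 7.58 in unchallenged mutants. In wild types it did not pass (log2 change 0.31, SE 0.16, limma adjusted p 0.172).

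Among the conjugating enzymes, of 19 glutathione transferases 5 were lower and 1 higher in mutants, and 3 lower and 2 higher in wild types. In mutants that is 26.3% and 5.26%, beside 15.3% and 15.0% of all genes. In wild types it is 15.8% and 10.5%, beside 11.5% and 11.1% of all genes. Gstm1, a mu-class transferase of broad substrate range, gave 10.15, 10.48, 10.70 and 10.15 in challenged mutants, against 11.27, 11.87 and 11.42 in unchallenged mutants. Its intensities were 11.19, 10.77, 11.14 and 11.01 in challenged wild types, against 11.88, 11.89, 11.92 and 11.90 in unchallenged wild types, the 4 unchallenged wild types being very close together. It was 2.22-fold lower (log2 change -1.15, SE 0.17, limma adjusted p 0.000425) in mutants and 1.83-fold lower (log2 change -0.87, SE 0.16, limma adjusted p 0.00183) in wild types. Gstm2 of the same chromosome 3 cluster was 1.42-fold lower (log2 change -0.51, SE 0.13, limma adjusted p 0.00831) in mutants, a call that ended without unchallenged mutant 2 (limma adjusted p 0.0589), and 1.38-fold lower (log2 change -0.47, SE 0.12, limma adjusted p 0.011) in wild types, and all 3 of its probes passed in both genotypes. Gstm genes are alike in sequence, so some signal may be shared between them. Across the 5 cluster members 3 fell in mutants and 2 in wild types.

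Gsta3, an alpha-class transferase that in mice conjugates aflatoxin epoxide, gave 10.99, 11.48, 11.36 and 10.41 in challenged mutants, against 11.95, 12.51 and 12.41 in unchallenged mutants. Gsta3 was at 11.76, 11.33, 11.71 and 11.52 in challenged wild types, against 12.31, 12.70, 12.59 and 12.65 in unchallenged wild types. It was 2.34-fold lower (log2 change -1.23, SE 0.23, limma adjusted p 0.00164) in mutants and 1.98-fold lower (log2 change -0.98, SE 0.21, limma adjusted p 0.00486) in wild types, without overlap, and the log2 changes of a fainter probe were -1.03 in mutants and -1.15 in wild types. Gsto1, an omega-class transferase that reduces dehydroascorbate, was 1.72-fold lower (log2 change -0.78, SE 0.21, limma adjusted p 0.0144) in mutants, at 10.45, 11.24, 10.72 and 10.29 in challenged mutants, against 11.54, 11.37 and 11.45 in unchallenged mutants; this ended without unchallenged mutant 1 (limma adjusted p 0.0501). Its wild-type change did not pass (log2 change 0.20, SE 0.20, limma adjusted p 0.501).

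Gstp3 and Gsta4 were called higher. Gstp3, a pi-class paralog, was 1.57-fold higher (log2 change 0.65, SE 0.19, limma adjusted p 0.0187) in mutants, not called without unchallenged mutant 1 (limma adjusted p 0.0652) or 2 (0.0571), and 1.65-fold higher (log2 change 0.72, SE 0.17, limma adjusted p 0.00982) in wild types; its close paralogs Gstp1 and Gstp2 were not called. Gsta4, which conjugates aldehydes from lipid peroxidation, was 1.84-fold higher (log2 change 0.88, SE 0.26, limma adjusted p 0.0247) in wild types at 9.45, 9.97, 9.47 and 8.94 in challenged wild types, against 8.81, 8.45, 8.57 and 8.47 in unchallenged wild types. This call ended without unchallenged wild type 2 (limma adjusted p 0.0659), 3 (0.0559) or 4 (0.0624) or challenged wild type 2 (0.0788) or 3 (0.0511). In mutants Gsta4 was not called (log2 change 0.10, SE 0.28, limma adjusted p 0.793).

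Sulfotransferases and glucuronosyltransferases were few. Sult1a1, the main phenol sulfotransferase, gave 10.45, 9.62, 10.08 and 9.93 in challenged mutants, against 10.59, 11.14 and 11.37 in unchallenged mutants. It had 10.99, 9.77, 10.01 and 10.01 in challenged wild types, against 11.25, 11.17, 10.76 and 11.22 in unchallenged wild types, where challenged wild type 1 lay among the unchallenged mice. Its level was 2.02-fold lower (log2 change -1.01, SE 0.28, limma adjusted p 0.014) in mutants and 1.87-fold lower (log2 change -0.91, SE 0.26, limma adjusted p 0.0215) in wild types; the mutants' call ended without unchallenged mutant 2 (limma adjusted p 0.0589) or 3 (0.0652), and the wild types' call without unchallenged wild type 2 (0.0554) or 4 (0.057) or challenged wild type 2 (0.068) or 3 (0.056). Sult1d1, which sulfates catechols in mice, gave 7.25, 6.77, 6.62 and 6.50 in challenged wild types, against 7.80, 7.87, 7.81 and 7.80 in unchallenged wild types, and was 2.05-fold lower (log2 change -1.04, SE 0.21, limma adjusted p 0.00372) in wild types. In mutants it did not pass (log2 change -0.57, SE 0.23, limma adjusted p 0.0709), and a fainter probe of it showed no called change in either genotype (log2 change 0.52 in mutants and 0.05 in wild types).

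Ugt1a10 was 1.57-fold lower (log2 change -0.65, SE 0.15, limma adjusted p 0.00626) in mutants, at 7.49, 7.66, 7.72 and 7.50 in challenged mutants, against 8.44, 8.24 and 8.05 in unchallenged mutants. In wild types it was 1.34-fold lower (log2 change -0.42, SE 0.14, limma adjusted p 0.0462), which ended without any 1 of 9 arrays, namely unchallenged wild types 1, 2 and 4, unchallenged mutant 2, challenged wild types 2 and 4 and challenged mutants 1, 2 and 3 (limma adjusted p 0.0503 to 0.13). Ugt1a6a, a phenol glucuronosyltransferase, was 1.39-fold higher (log2 change 0.48, SE 0.14, limma adjusted p 0.0294) in wild types by its brightest probe, yet another probe of it was lower (log2 change -1.32, limma adjusted p 0.000346), so no direction is given for the gene. Genes of the Ugt1a locus share their last exons, and probes there may not tell them apart. Where these probes lie was not checked. The call by the brightest probe also ended without unchallenged wild type 2 (limma adjusted p 0.0657), 3 (0.0785) or 4 (0.0884) or challenged wild type 1 (0.0573) or 3 (0.0732).

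Genes that serve or regulate these enzymes were read from 6 lists. Their counts stand beside 15.3% lower and 15.0% higher among all genes in mutants, and 11.5% and 11.1% in wild types. Of 12 measured NRF2 targets, the antioxidant program, 6 were higher in mutants and 4 in wild types, and 0 were lower. The cystine transporter Slc7a11 had a log2 change of 1.47 (SE 0.26, limma adjusted p 0.00144) in mutants and 1.21 (SE 0.24, limma adjusted p 0.0036) in wild types. The malic enzyme Me1 changed by 1.05 (SE 0.21, limma adjusted p 0.0025) in mutants and 0.80 (SE 0.19, limma adjusted p 0.00942) in wild types on the same scale. The best-known target, Nqo1, was not called in mutants (log2 change -0.33, SE 0.23, limma adjusted p 0.277) or in wild types (0.00, SE 0.21, limma adjusted p 0.994), and the message for NRF2 itself, Nfe2l2, fell by 0.60 in mutants (SE 0.17, limma adjusted p 0.0186) and by 0.64 in wild types (SE 0.16, limma adjusted p 0.0126) on the log2 scale.

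Of 21 detoxifying enzymes outside the 9 families, 6 were lower and 1 higher in mutants, and 6 lower and 3 higher in wild types. Pon1, the paraoxonase, had a log2 change of -2.73 (SE 0.30, limma adjusted p 8.37e-05) in mutants and -2.28 (SE 0.28, limma adjusted p 0.000161) in wild types. Inmt, an amine methyltransferase abundant in lung, changed by -1.45 (SE 0.21, limma adjusted p 0.000458) in mutants and -1.22 (SE 0.20, limma adjusted p 0.00108) in wild types. Mgst2, a microsomal transferase that can make leukotriene C4, changed by 0.89 (SE 0.18, limma adjusted p 0.00281) in mutants and 1.04 (SE 0.17, limma adjusted p 0.000963) in wild types.

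Of 9 drug and conjugate transporters 3 were lower in mutants and 2 in wild types, and 0 higher. Of 14 electron donors and cofactor suppliers, 1 was higher and 1 lower in mutants and 1 higher in wild types. The higher one was Gclc, of glutathione synthesis (log2 change 0.61, SE 0.19, limma adjusted p 0.0271 in mutants; 0.91, SE 0.18, limma adjusted p 0.00288 in wild types). The lower one in mutants was Alas1, the first enzyme of heme synthesis (log2 change -0.67, SE 0.15, limma adjusted p 0.00497). Of 5 xenobiotic receptors and their partners, 1 was lower in mutants and 2 in wild types. Neither of the 2 measured genes of the AHR axis, Arnt and Nqo1, was called.

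**Figure D5:**
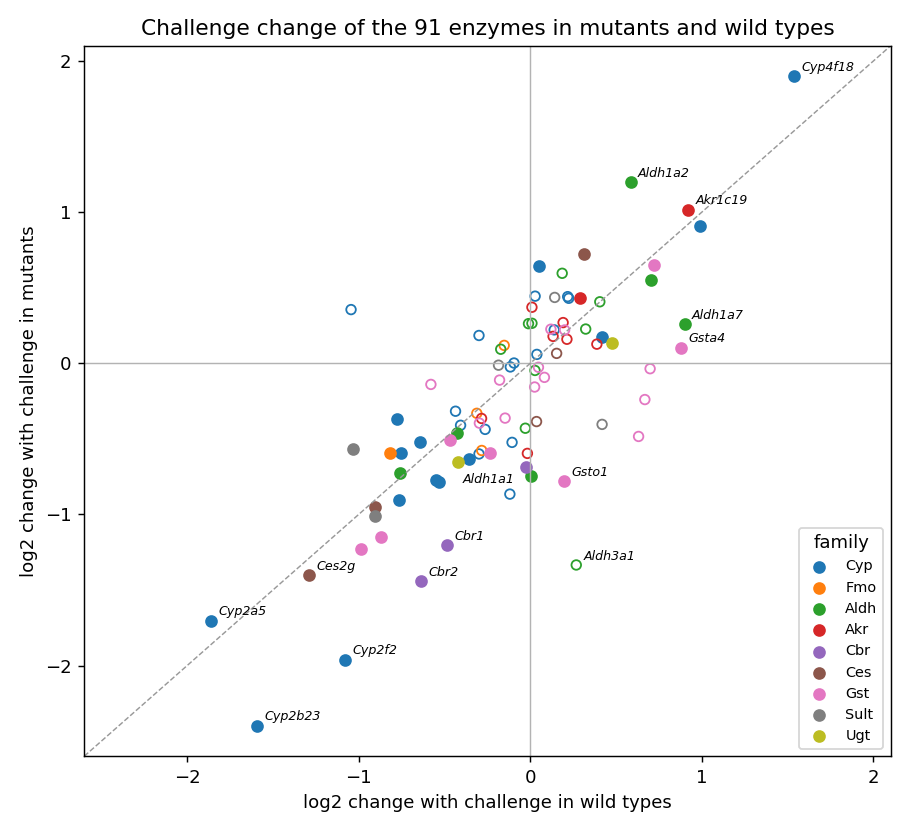
Log2 change with challenge of the 91 enzymes in mutants (vertical axis) and in wild types (horizontal axis), coloured by family, with filled points for enzymes called in at least 1 of the 2 comparisons and a dashed line of equal change. Cyp2f2 (-1.96 in mutants, -1.08 in wild types) and Cbr2 (-1.44 in mutants, -0.64 in wild types) lie below the line, and Cyp2a5 (-1.70 in mutants, -1.86 in wild types) lies close to it.

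Without challenge, mutant and wild-type lungs did not differ in any enzyme at the threshold. Of the 91 enzymes 0 were called with limma, beside 1 of 10194 genes called (0.00981%). At an unadjusted p under 0.05 there were 4 enzymes (4.4%), beside 2.64% of all genes and fewer than the 5% that such a threshold passes by chance. The 4 were Cyp2j9, Cyp4f13, Fmo1 and Gstm1, all lower in mutants. Fmo1 was 1.34-fold lower (log2 change -0.42, SE 0.16, limma adjusted p 1), at 12.15, 12.67 and 12.49 in unchallenged mutants, against 12.82, 12.79, 12.81 and 13.01 in unchallenged wild types, and Gstm1 was 1.3-fold lower (log2 change -0.38, SE 0.17, limma adjusted p 1), at 11.27, 11.87 and 11.42 in unchallenged mutants, against 11.88, 11.89, 11.92 and 11.90 in unchallenged wild types. In both genes unchallenged mutant 2 lay nearest to the wild types. Unchallenged mutants 1 and 3 also carried goblet cell genes at 1.71 and 1.78 and macrophage genes at 0.93 and 0.97 above the unchallenged wild-type mean on the log2 scale, where unchallenged mutant 2 had -0.21 and -0.05. The part of this in the enzymes' values was not tested.

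Under challenge 1 enzyme passed between genotypes, Cbr2, beside 16 of 10194 genes called in either direction (0.157%) and 0.128% called lower. It was 1.99-fold lower (log2 change -0.99, SE 0.18, limma adjusted p 0.0424) in challenged mutants than in challenged wild types. The call passed when challenged wild type 4 or challenged mutant 2 was left out, and ended without any 1 of the other 13 arrays (limma adjusted p 0.0568 to 0.146), with log2 differences from -1.09 to -0.87 in those fits. With the fat markers' level as a covariate the difference was -0.55 (limma adjusted p 0.601), and 0 enzymes passed. Without challenged wild type 4, 7 enzymes were lower (7.69%), beside 1.23% lower and 0.304% higher among all genes in that fit. Without challenged mutant 2, 3 were lower (3.3%), beside 0.618% lower and 0.275% higher among all genes.

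Next in order, none of them called, came Cbr3 (log2 change -0.90, SE 0.17, limma adjusted p 0.0585), Gsto1 (log2 change -0.99, SE 0.20, limma adjusted p 0.0625), Cyp2f2 (log2 change -1.27, SE 0.28, limma adjusted p 0.0746), Aldh1a1 (log2 change -0.78, SE 0.17, limma adjusted p 0.0788) and Gstm1 (log2 change -0.66, SE 0.16, limma adjusted p 0.0957). In all 5 the challenged mutants lay below the challenged wild types. In Cbr3 the 4 challenged mutants had 8.27, 8.76, 8.63 and 7.88 and the 4 challenged wild types 9.06, 9.59, 9.36 and 9.11, and in Gsto1 the values were 10.45, 11.24, 10.72 and 10.29 in challenged mutants and 11.31, 11.54, 12.01 and 11.81 in challenged wild types. Over all 91 enzymes 24 had an unadjusted p under 0.05 (26.4%), beside 12.9% of all genes. The club cell marker Cldn10 was called lower in the same comparison (log2 change -1.12, SE 0.20, limma adjusted p 0.0398), at 10.12, 11.12, 10.70 and 10.42 in challenged mutants and 12.01, 11.73, 11.74 and 11.35 in challenged wild types. It was the only 1 of the 5 tested club cell markers called there, and the median log2 change of that list was -0.02. The part of the club cell list and of the ciliated cell list, whose ranges on these arrays are given above, was not tested for these enzymes.

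The direct test of whether challenge acted differently in the 2 genotypes called 0 of 91 enzymes with limma, and 0 of 10194 genes. At an unadjusted p under 0.05 there were 7 enzymes (7.69%) and 417 genes (4.09%). The smallest unadjusted p belonged to Gsto1 (0.00464), Cbr2 (0.00864) and Aldh1a1 (0.0112), with adjusted p of 1 each. Their challenge changes differed, mutants minus wild types, by -0.98 (SE 0.29), -0.81 (SE 0.27) and -0.75 (SE 0.26) on the log2 scale. Calls made in mutants and not in wild types, such as those of Cbr1, Cbr3, Gsto1 and Aldh1a2, are thus not shown to differ between the genotypes.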

How the data were processed

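Lung RNA of each of 15 mice was hybridized to an Illumina beadchip. The deposited table holds, per the file headers, a non-normalized linear intensity and a detection p-value (steps of 0.00125) for each of 25697 probes per array. The submitters' processing notes name GenomeStudio 2011.1 without its role. A further set of linear intensities deposited by the authors in the series matrix, with 21.1% to 21.2% of values per array below 0, was normalized in a way the sources used here do not give, and served as an alternative only. Of the probes 23978 have 1 symbol in the platform annotation and 1719 have none; 23962 Entrez ids matched RefSeq (GRCm38.p6), and 0 were renamed.

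In R 4.3.3, the neqc function of limma 3.58.1 corrected the background (offset 16, negative controls inferred from the detection p-values), quantile-normalized the intensities and gave log2 values. Probes detected at p under 0.05 on at least 3 arrays were tested (14396). Of these, 13535 name 10194 genes. lmFit and eBayes were fitted with a mean per group (11 residual degrees of freedom). P-values were two-sided and Benjamini-Hochberg adjusted over those probes, and the threshold was 0.05. Where a group never detected a probe, its fold is a bound, taken against that group's mean after raising each array's value to at least the lowest signal detected on the array. Log2 intensities of different probes were not compared. The number of arrays limits the precision.

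Genes named are, per family and challenge comparison, up to 3 highest and 3 lowest called changes, members called between genotypes, the 3 smallest interaction p-values, and a list of enzymes known from lung or induction; others are named in lists of calls. Members and gene lists (23) were chosen with earlier results of these data known. Alternatives were background, normalization, filters, tests, probe choice, 1 array left out and the replicate block. The covariates, and the fit without 4 arrays, were added after seeing the data. The fit was tested on simulated data.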

Additional observations from a re-analysis of the deposited data

Results flagged for a closer look

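Of 114 groups of 4 arrays examined for the named enzymes, 6 (5.26%) held a mouse set apart from the other 3 by more than Dixon's critical ratio of gap to range, a share that chance alone puts at 5%. Cyp2f2 was 14.99 in unchallenged wild type 2, where the other 3 unchallenged wild types all had 14.82. Fmo1 was 13.01 in unchallenged wild type 4, against 12.79 to 12.82 in the others of the group. Gstp3 was 6.83 in unchallenged wild type 2, below 7.05 to 7.09. Sult1a1 was 10.76 in unchallenged wild type 3, below 11.17 to 11.25. Sult1d1 was 6.26 in challenged mutant 1, below the 7.07 to 7.14 of the other challenged mutants, and 7.87 in unchallenged wild type 2, beside 7.80 to 7.81.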

How the results depend on the processing

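Each total of enzymes called in a comparison, and each of 55 called changes of a named enzyme, was recomputed under 33 alternatives. Cyp4x1 in mutants had 32 of these alternatives, its probe failing the stricter filter. Of the calls 13 held in all of them: Cyp2f2, Cyp4b1 and Gstm1 in both genotypes, Cbr2 in mutants, and Akr1c19, Aldh2, Cyp2a5, Cyp2b23, Cyp4f18 and Fmo1 in wild types. The other 42 ended in at least 1 alternative, and 6 of these also changed sign. Mean signal per array as a covariate, which differs between challenged and unchallenged arrays, ended the most calls. It turned Akr7a5 (-0.06), Cbr1 (0.43), Cyp4x1 (-0.22) and Gstp3 (-0.03) round in mutants. Median scaling turned Akr7a5 (-0.28), Aldh5a1 (-0.15) and Gstp3 (-0.02) round in mutants, and the mean of a gene's probes turned Ugt1a6a (-0.42) round in wild types.

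Enzymes higher in mutants numbered 9 in the fit reported, 4 with median scaling, 5 with only the compared groups in the fit, 2 with mean signal as a covariate, and 5 to 11 with 1 array left out. Enzymes lower in mutants numbered 25, but 52 with median scaling, 16 with only the compared groups, 13 with the fat level and 4 with mean signal as a covariate, and 14 to 27 with 1 array left out. In wild types the 9 higher became 3 with median scaling, 15 with array weights, 3 with mean signal, and 6 to 11 with 1 array left out, and the 20 lower became 9 with mean signal and 13 to 21 with 1 array left out. With median scaling all genes split 5212 lower and 417 higher in mutants and 3139 lower and 435 higher in wild types. With only the compared groups 8.89% of all genes were lower and 8.16% higher in mutants, beside 17.6% and 5.49% of the enzymes. With array weights 17.7% of all genes were higher in wild types, beside 16.5% of the enzymes. Between challenged genotypes the single call became 3 without background correction, with an offset of 50, with median scaling or with a trended robust fit, 2 with the pancreas level, and 0 with cyclic loess, the authors' values, no filter, array weights, only the compared groups, the fat level or mean signal, and 0 to 7 with 1 array left out. Counts between unchallenged genotypes and for the interaction were 0 throughout the alternatives run; the interaction has no fit with fewer groups. The cause of these shifts was not tested.

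Replicate numbers are shared between groups but name separate mice. Deviations of same-numbered arrays from their group means correlated by -0.11 to 0.50, over 0.1 in 9 of 21 pairs. The highest value joined unchallenged and challenged wild type 1. Differently numbered arrays were not compared, so these values cannot decide whether the numbers pair the mice. With the replicate number as a block, 21 enzymes were lower and 8 higher in mutants, 17 lower and 9 higher in wild types, and 1 differed between challenged genotypes, which was Cbr3; Cbr2 did not pass (limma adjusted p 0.0581). The block also ended the mutants' calls of Akr7a5 (limma adjusted p 0.0552), Aldh3a2 (0.065), Cbr1 (0.0726) and Cyp4x1 (0.0774) and the wild types' calls of Aldh3a2 (0.0542) and Ugt1a10 (0.057). Faint probes, such as that of Cyp4x1, limit what signal over background can show.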
